A study of Mus musculus with 36 samples.

Results

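The genes described here are 9 apical surface genes of polarised epithelia: Vil1, Ezr, Podxl, Cdhr5, Anpep, Dpp4, Mme, Cltrn and Habp2. They were selected on results of these same libraries and matched by Ensembl identifier to rows of the deposited table, which holds 49585 gene identifiers. All 9 were in the table, and 8 of them were among the 20009 genes that passed a filter on low counts. Cdhr5 did not pass. Gene coordinates below are those of the GRCm38 annotation that gave the symbols. Each library held RNA of EGFP-positive neoplastic cells sorted from a mouse lung tumour driven by the fusion oncogene EML4-ALK. The cells carried either Variant 1 or Variant 3 of the fusion, and either the control guide sgNeo (Setd2-proficient) or the guide sgSetd2 (Setd2-deficient), so that the 4 groups all carry EML4-ALK and EGFP. Setd2 encodes the histone methyltransferase that marks the bodies of transcribed genes. Each group held 9 tumours under 3 title codes, with 3 tumours per code. What a code stands for is not given in the sources used here, and neither are the strain, the age of the mice, or how the fusion and guides were delivered. The code was taken as the unit of every test except limma voom, so that p-values measure the spread between codes. Limma voom, a repeat fit, used single tumours with the code as a random block. The correlation within codes was 0.084 there, so its p-values mostly measure the spread between tumours.

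Microvilli are finger-like extensions of the apical membrane, built on bundled actin filaments that are linked to the membrane and dressed with enzymes and transporters. A dense array of them, the brush border, is the hallmark of the enterocyte and of the proximal tubule of the kidney. The alveolar type 2 (AT2) cell of the lung, which makes surfactant, carries short apical microvilli and several of the same enzymes.

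The promoters of Cltrn and Habp2 are shown because the levels of both genes varied together between tumours of the sgNeo groups, as described further on, and that of Dpp4 because it held the motif matches found. They come from the RefSeq promoter table on build GRCm38.p6 and run from 250 bases before to 50 bases after an annotated start site. The Cltrn window is chrX:164089937-164090236 and the Habp2 window is chr19:56287662-56287961, both on the plus strand. The Dpp4 window is chr2:62412182-62412481, on the minus strand. The table also holds another Cltrn promoter, further downstream, and the one shown lies nearer to the start of the gene. Capitals mark matches on either strand to the motifs searched.
Cltrn: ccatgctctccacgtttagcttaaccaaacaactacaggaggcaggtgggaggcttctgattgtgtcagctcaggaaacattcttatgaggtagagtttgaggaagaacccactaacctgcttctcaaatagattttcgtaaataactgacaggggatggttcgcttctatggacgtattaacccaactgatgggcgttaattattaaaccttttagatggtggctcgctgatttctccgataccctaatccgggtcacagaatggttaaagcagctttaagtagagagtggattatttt
Habp2: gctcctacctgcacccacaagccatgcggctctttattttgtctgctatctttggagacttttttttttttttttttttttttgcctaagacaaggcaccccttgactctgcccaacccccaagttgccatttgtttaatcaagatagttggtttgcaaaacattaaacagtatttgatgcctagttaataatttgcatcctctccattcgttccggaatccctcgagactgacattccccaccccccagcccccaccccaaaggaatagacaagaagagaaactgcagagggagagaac
Dpp4: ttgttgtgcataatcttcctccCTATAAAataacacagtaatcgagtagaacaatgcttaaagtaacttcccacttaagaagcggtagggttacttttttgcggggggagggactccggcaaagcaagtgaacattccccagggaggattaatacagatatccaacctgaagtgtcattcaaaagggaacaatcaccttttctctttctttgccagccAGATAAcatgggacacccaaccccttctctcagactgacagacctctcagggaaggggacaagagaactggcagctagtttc
The motifs were AGATAA for GATA factors, TTTATNG for CDX factors, TGTTTAC for FOXA factors and CAAAGTC for HNF4. The table held 11 promoters for 8 of the 9 genes, and the Dpp4 promoter was the 1 with a match, a GATA match at position -32 and a CDX match on the opposite strand at position -228 from the start site. Among all 32851 promoters of the table, 11.2% held the GATA motif, 10.9% the CDX motif, 3.65% the FOXA motif and 4.44% the HNF4 motif. A match is a description of letters, not of binding, and the lack of one says only that these letters are not in the window.

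Libraries held between 17.9 M and 137.2 M counts per tumour (median 40.7 M), and the summed codes held between 91.5 M and 212.1 M. Levels are given as CPM, that is, counts scaled to the size of the library after TMM normalisation, and group levels as mean ± SD over 3 codes. Epithelial markers were high in every tumour, with a mean log2(CPM + 1) of 9.02 to 10.04 over 4 genes, whereas the T cell list did not exceed 0.16 and the endothelial list did not exceed 0.78. Within Variant 1 sgNeo, the AT2 list was lowest in 3 tumours, at 9.68 in tumour 1 of code CE467, 10.29 in tumour 4 of CE468 and 11.04 in tumour 2 of CE472, against 11.65 to 12.39 in the other 6 tumours of that group. Tumour 1 of CE467 also had the highest level of the fibroblast and mesothelium list, 5.79. Setd2, the targeted gene, stood at 67.7 ± 12.8 CPM (n = 3) in Variant 1 sgNeo and 37.4 ± 2.52 in Variant 1 sgSetd2, and at 54.6 ± 10.3 and 45.7 ± 13.2 in the Variant 3 groups. Its log2 fold change was -0.86 ± 0.22 (SE) in Variant 1 and -0.26 ± 0.22 in Variant 3, and neither passed the threshold. A small deletion at a guide's target need not lower the RNA of the gene, so this level is a weak check of the labels.

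The label of the set held in part. Of the 9 genes, 7 had a mean above 50 CPM in at least 1 group, but Vil1 was low in every group and Cdhr5 was nearly absent. Cdhr5 (ENSMUSG00000025497.15, chr7:141269083-141276786, minus strand) encodes a protocadherin that links the tips of neighbouring microvilli in the brush border. It had 31 counts in 36 tumours, spread over 5 tumours, with 3 counts for sgNeo and 20 for sgSetd2 in Variant 1, and 0 and 8 counts for the same guides in Variant 3. For Variant 3 sgNeo, with 0 counts, the upper limit that 3 counts set is 0.0064 CPM. The means were 0.0102 CPM in Variant 1 sgNeo, 0.0608 in Variant 1 sgSetd2 and 0.0128 in Variant 3 sgSetd2. Cdhr5 did not pass the low-count filter, so no difference between groups was tested. Its partners in the same adhesion complex were close to 0 as well. Cdhr2 had 0 counts, Ush1c 18 and Myo7b 5 over all 36 tumours, and Anks4b and Calml4 reached at most 2.85 and 3.98 CPM in any tumour. In bulk RNA, fewer cells of a type and less RNA per cell cannot be told apart, which holds for every level below.

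Vil1 (ENSMUSG00000026175.12, chr1:74409376-74435559, plus strand) encodes villin, the actin-bundling and severing protein of the microvillus core. Its level in single tumours of Variant 1 sgNeo was 0.0 CPM at the lowest, 4.84 at the median and 16.1 at the highest. In Variant 1 sgSetd2 the corresponding values were 0.0, 0.251 and 0.836 CPM. Tumours of both groups overlapped because 2 of the 9 control tumours, at 0.0 and 0.0759 CPM, were as low as the sgSetd2 tumours. In Variant 3 sgNeo the values were 0.0, 0.55 and 20.1 CPM, and in Variant 3 sgSetd2 0.115, 0.499 and 1.05 CPM. A single tumour, tumour 2 of code CE433, held the high end of Variant 3 sgNeo, and the next highest was at 2.04 CPM. The group means were 5.58 ± 0.549, 0.325 ± 0.0868, 2.25 ± 2.74 and 0.563 ± 0.116 CPM for sgNeo and sgSetd2 of Variant 1 and then for the same guides of Variant 3, an order kept for all means below.

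Ezr (ENSMUSG00000052397.8, chr17:6738041-6782784, minus strand) encodes ezrin, the linker that ties the microvillar actin core to the membrane. Its log2 SD between tumours was the lowest of the 8 genes tested in 3 of the 4 groups, the exception being Variant 3 sgSetd2, where it was 0.321 beside 0.311 for Vil1. Ezr had 381, 550 and 737 CPM as the lowest, median and highest tumour of Variant 1 sgNeo and 392, 539 and 633 CPM in Variant 1 sgSetd2. Variant 3 sgNeo tumours had 377, 477 and 552 CPM, and Variant 3 sgSetd2 tumours 249, 345 and 450 CPM. All 4 groups overlapped in their tumours, and the 3 tumours of code CE456 were the lowest of all 36, at 249, 249 and 283 CPM. Group means were 563 ± 56.2, 545 ± 75.2, 474 ± 29.8 and 350 ± 86.9 CPM.

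Podxl (ENSMUSG00000025608.9, chr6:31519488-31563981, minus strand) encodes podocalyxin, a heavily sialylated mucin of the apical membrane that binds ezrin through adaptor proteins. Tumours ranged from 13.6 through a median of 34.1 to 159 CPM in Variant 1 sgNeo, and from 5.58 through 14.1 to 29.9 CPM in Variant 1 sgSetd2. The ranges overlapped, and tumour 1 of CE467 stood at 159 CPM where the next tumour of its group was at 70.5. In Variant 3 the sgNeo tumours had 9.32, 21.3 and 45.4 CPM and the sgSetd2 tumours 20.2, 41.3 and 57.0 CPM. The order of the guides was thus opposite between the variants by the medians as well as by the means, which were 57.9 ± 29.3, 13.8 ± 1.42, 26.0 ± 6.52 and 38.8 ± 12.4 CPM.

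Anpep (ENSMUSG00000039062.15, chr7:79821803-79861059, minus strand) encodes aminopeptidase N, an ectoenzyme that trims amino acids from the N-terminus of peptides. Its lowest, median and highest tumours were 2.59, 20.6 and 48.0 CPM in Variant 1 sgNeo and 38.8, 65.8 and 110 CPM in Variant 1 sgSetd2. Only 2 of the 9 control tumours, at 45.3 and 48.0 CPM, reached the range of the sgSetd2 tumours. In Variant 3 the values were 0.0232, 9.54 and 13.6 CPM with sgNeo and 8.07, 13.6 and 33.5 CPM with sgSetd2. With sgSetd2, every Variant 1 tumour was above every Variant 3 tumour. The means were 21.0 ± 4.38, 73.0 ± 19.1, 6.86 ± 1.78 and 16.0 ± 4.51 CPM.

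Dpp4 (ENSMUSG00000035000.8, chr2:62330073-62412231, minus strand) encodes dipeptidyl peptidase 4, which cleaves dipeptides from peptide hormones and chemokines. The lowest, median and highest Variant 1 tumours had 137, 413 and 531 CPM with sgNeo and 202, 360 and 404 CPM with sgSetd2. For Variant 3 the values were 284, 345 and 495 CPM with sgNeo and 146, 328 and 391 CPM with sgSetd2. Every pair of groups overlapped, and the lowest control tumours were tumours 4 of CE468 and 1 of CE467, at 137 and 156 CPM. The means were 378 ± 117, 343 ± 35.2, 354 ± 10.2 and 307 ± 80.7 CPM.

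Mme (ENSMUSG00000027820.12, chr3:63241537-63386030, plus strand) encodes neprilysin, the metallopeptidase also known as CD10. Single tumours of Variant 1 sgNeo lay between 0.0 and 387 CPM with a median of 193, and those of Variant 1 sgSetd2 between 64.2 and 159 CPM with a median of 92.0. Control tumours were thus both above and below all sgSetd2 tumours: 5 of the 9 exceeded 159 CPM and 3 were at 21.0 CPM or less. In Variant 3 the sgNeo tumours ran from 0.0 through 79.1 to 229 CPM and the sgSetd2 tumours from 4.98 through 13.5 to 24.3 CPM. Among Variant 3 controls, 3 tumours were at 19.2 CPM or less and the other 6 were above every sgSetd2 tumour. The means over codes were 153 ± 37.4, 108 ± 24.9, 75.5 ± 26.8 and 15.6 ± 3.3 CPM.

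Cltrn (ENSMUSG00000015401.12, chrX:164088830-164118860, plus strand) encodes collectrin, a membrane protein that carries amino acid transporters to the apical membrane of the renal tubule. In Variant 1 sgNeo the lowest, median and highest tumours were 0.429, 42.8 and 278 CPM, and in Variant 1 sgSetd2 0.0, 0.563 and 48.5 CPM. The single tumour 4 of CE479, at 48.5 CPM, made these groups overlap at the upper end, and the next sgSetd2 tumour was at 1.95 CPM. Among the controls, tumours 3 of CE467 and 4 of CE472 were as low as the sgSetd2 tumours, at 0.429 and 0.545 CPM. Variant 3 sgNeo tumours had 6.4, 83.7 and 304 CPM and Variant 3 sgSetd2 tumours 0.0, 1.18 and 4.14 CPM, with no overlap. The means were 131 ± 31.6, 5.71 ± 9.01, 109 ± 44.5 and 1.18 ± 0.808 CPM.

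Habp2 (ENSMUSG00000025075.14, chr19:56287137-56320822, plus strand) encodes a secreted serine protease that binds hyaluronan and is made mainly by the liver, and it is no structural part of a microvillus. Tumours of Variant 1 sgNeo ran from 2.06 through 19.1 to 447 CPM and those of Variant 1 sgSetd2 from 0.0 through 5.3 to 39.0 CPM. The highest control, tumour 2 of CE472 at 447 CPM, was far from the next, at 110 CPM, and the remaining ranges overlapped. In Variant 3 the sgNeo tumours had 8.74, 36.5 and 206 CPM and the sgSetd2 tumours 7.12, 14.2 and 21.3 CPM, again with overlap at the low end. The means were 97.5 ± 88.8, 8.53 ± 3.96, 90.2 ± 19.3 and 14.1 ± 3.21 CPM.

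**Figure D1:**
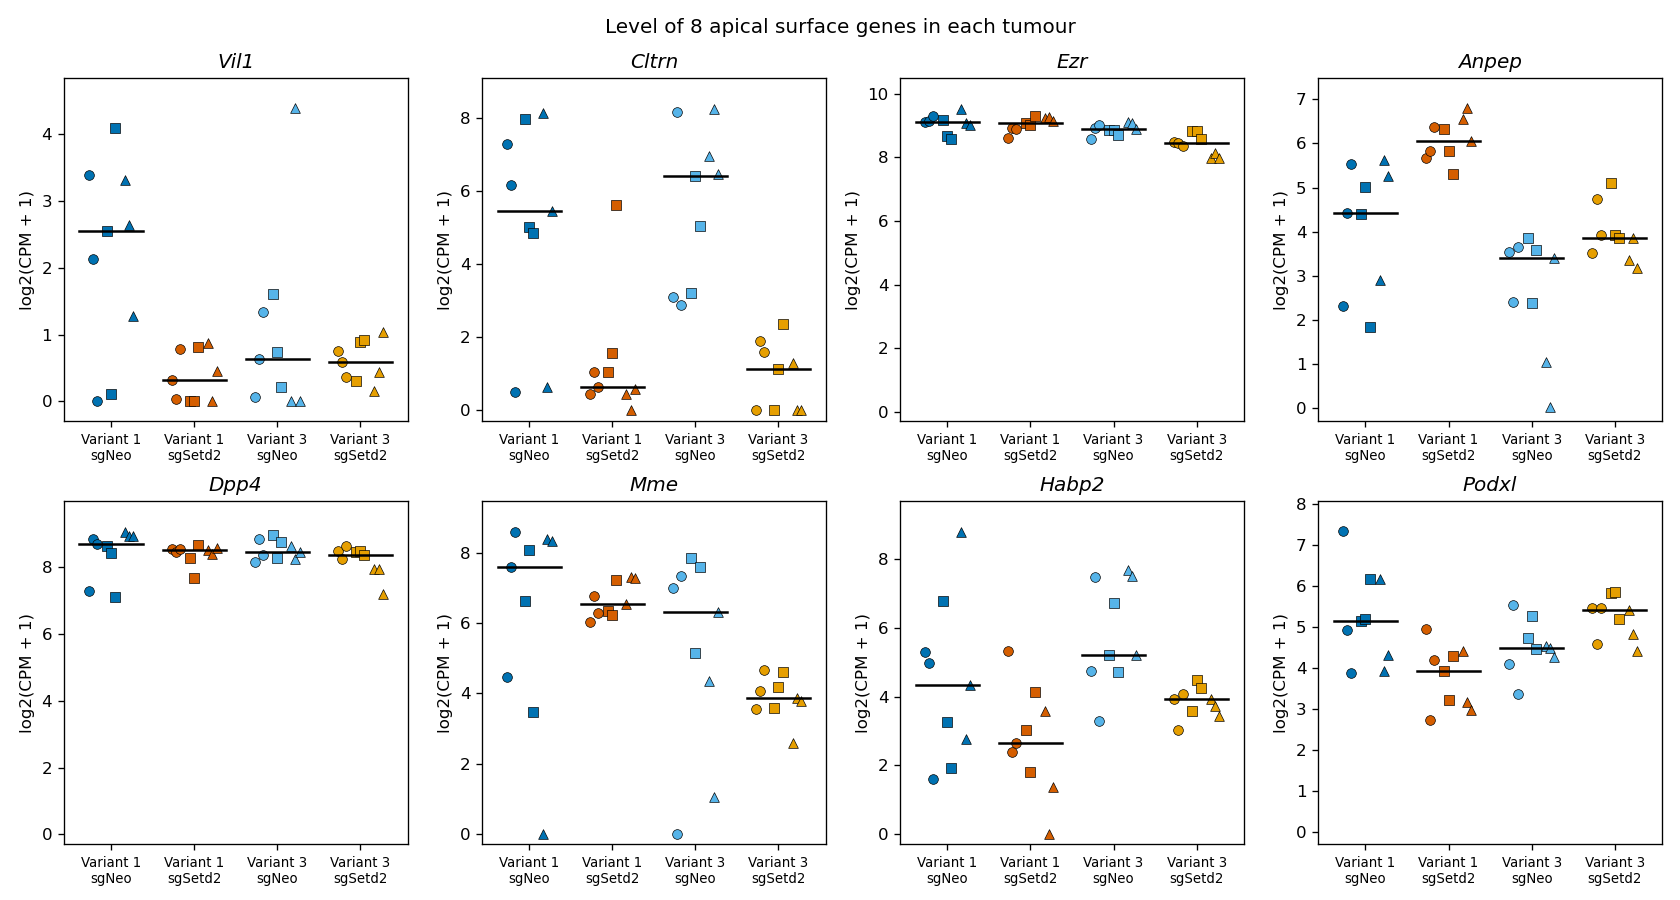
Level of 8 members in each of 36 tumours, as log2(CPM + 1), by group; marker shapes stand for the 3 codes of a group and black lines for the median of its 9 tumours. Cltrn, Mme and Habp2 spread widely among sgNeo tumours, from 0.429 to 278 CPM for Cltrn in Variant 1. In the same group Dpp4 ran from 137 to 531 CPM and Ezr from 381 to 737 CPM.

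Levels of different genes were compared per kilobase of exon. In Variant 1 sgNeo the order was Ezr at 171 ± 17.1 CPM per kb, Cltrn at 84.8 ± 20.5, Dpp4 at 59.8 ± 18.5, Habp2 at 30.5 ± 27.8, Mme at 13.3 ± 3.24, Podxl at 10.6 ± 5.34, Anpep at 5.08 ± 1.06 and Vil1 at 1.57 ± 0.155. The intervals of 1 SD around the means overlapped for 5 pairs of neighbours, namely Cltrn and Dpp4, Dpp4 and Habp2, Habp2 and Mme, Mme and Podxl, and Podxl and Anpep. Variant 3 sgNeo showed the same order, with Ezr at 144 ± 9.04 and Vil1 at 0.634 ± 0.771 CPM per kb. Cltrn, at rank 2 in both control groups, had rank 5 in Variant 1 sgSetd2, at 3.7 ± 5.84 CPM per kb, and rank 7 in Variant 3 sgSetd2, at 0.762 ± 0.523. Anpep had rank 7 in Variant 1 sgNeo and rank 3 in Variant 1 sgSetd2, at 17.6 ± 4.63 CPM per kb. Ezr had rank 1 and Vil1 rank 8 in all 4 groups, with Cdhr5 below it at no more than 0.0222 ± 0.0207 CPM per kb.

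**Figure D2:**
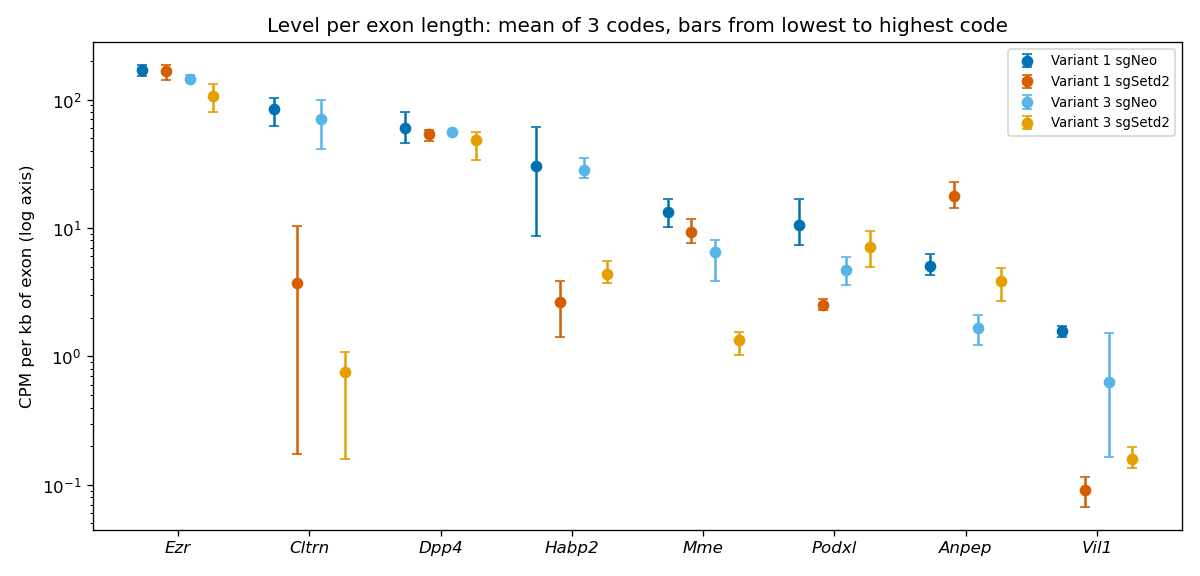
Mean level of 8 members over 3 codes in CPM per kb of exon (log axis), by group; bars run from the lowest to the highest code. Ezr was highest in each group, and Cltrn had rank 2 with sgNeo and ranks 5 and 7 with sgSetd2.

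The comparison of sgSetd2 with sgNeo asks what differs with loss of Setd2 within a fusion variant. Both guide comparisons were in view when the genes were chosen, so their values are a description and no test is read from them. In Variant 1 the log2 fold change was -4.10 ± 0.79 (SE) for Vil1, -0.05 ± 0.18 for Ezr and -2.07 ± 0.34 for Podxl. Among the ectopeptidases it was 1.80 ± 0.28 for Anpep, -0.14 ± 0.23 for Dpp4 and -0.51 ± 0.29 for Mme, and it was -4.51 ± 1.23 for Cltrn and -3.51 ± 0.62 for Habp2. By edgeR's quasi-likelihood test at an adjusted p under 0.05, Anpep was higher and Vil1, Podxl and Habp2 were lower, 4 of the 8 members tested. The same rule called 1.42% of all genes tested, 0.7% higher and 0.72% lower. The median of the 8 log2 fold changes was -1.29, beside -0.01 over all genes. The codes of the sgNeo and sgSetd2 groups did not overlap for Vil1, Podxl, Anpep, Habp2 and Cltrn, and they overlapped for Ezr, Dpp4 and Mme. The share of all genes whose codes do not overlap is not given, so this is a description only.

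These Variant 1 calls were lost under several of the settings tried. Without the 3 tumours of Variant 1 sgNeo that were lowest in AT2 genes within that group, 0 of the 8 members were called, and the log2 fold changes were -2.95 for Vil1, -0.87 for Podxl, 1.17 for Anpep and -2.21 for Habp2. In that group the AT2 list had r = 0.96 with Anpep, -0.94 with Podxl, -0.76 with Vil1 and -0.27 with Habp2. This fit thus drops extremes of Anpep, Podxl and Vil1 from 1 group. The 3 tumours dropped were also the lowest of that group in Mme. They include its highest Habp2 tumour, tumour 2 of CE472 at 447 CPM. Leaving out that tumour alone gave -2.13 for Habp2, beside -2.21 here. The fit is therefore no independent check for any of these genes. Tumours of other groups that were low in the AT2 list, such as tumour 10 of CE456 at 10.37, were kept. All 4 calls were also lost without code CE475 or CE483, tumour 1 of CE467 or tumour 2 of CE472. Vil1 was further lost without any other code of the Variant 1 groups or without tumour 1 of CE468, 4 of CE479, 3 of CE428, 2 of CE433 or 3 of CE433. Anpep was further lost without code CE467 or CE468 or tumour 3 of CE433, and Habp2 without code CE468 or tumour 1 of CE468, 1 of CE483 or 3 of CE433. The Cltrn difference depended in the other direction on tumour 4 of CE479, without which its log2 fold change was -7.34 and it was called, as it was without all of code CE479, at -7.98. Vil1 and Habp2 were lost with limma voom, at -4.43 and -3.29, and Anpep and Habp2 with limma on the mean log2-CPM of each code, at 2.05 and -2.30. Vil1 was lost with sex as a covariate (-4.28) and without the 4 tumours with over 10 CPM of Col1a1 (-3.79). Habp2 was lost without the low-count filter and with only the groups compared, both at -3.51. Cltrn was called with DESeq2 (-4.50), with limma on code means (-4.96) and without the Col1a1-high tumours (-7.24). The sign of the Mme difference turned with limma on code means, which gave 1.01, and with limma voom, which gave 1.81. The cause was not tested.

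In Variant 3 the log2 fold change was -2.0 ± 0.72 for Vil1, -0.44 ± 0.18 for Ezr and 0.58 ± 0.33 for Podxl. The ectopeptidases had 1.23 ± 0.27 for Anpep, -0.21 ± 0.23 for Dpp4 and -2.27 ± 0.30 for Mme, while Cltrn had -6.54 ± 1.36 and Habp2 -2.68 ± 0.59. Mme and Cltrn, 2 of the 8 members tested, were called lower and 0 were called higher. All genes tested had 1.49% called, 0.88% higher and 0.615% lower. The median of the members was -1.22, beside 0.02 over all genes. Codes did not overlap for Cltrn, Mme, Anpep, Habp2 and Ezr, but they did for Vil1, Podxl and Dpp4. The share of all genes without overlap is again not given. The Mme call was lost with limma on code means (-0.78) and with limma voom (-0.51), and the Vil1 value turned to 0.14 and 0.81 in these fits. Without tumour 2 of CE433 the Vil1 value was 0.33. Mme was also lost without tumour 3 of CE433, at -2.03. The Cltrn call held in 30 of 48 fits without 1 code or tumour, with values of -6.95 to -6.0. It was lost without any code of either sgNeo group or of Variant 3 sgSetd2. It was also lost without tumour 1 of CE467, CE468 or CE479, tumour 2 of CE472, CE479, CE428 or CE429, or tumour 6 of CE472 or CE456. Among the other settings it was lost with limma voom (-8.36), without the low-count filter (-6.53), with sex as a covariate (-6.64) and without the 3 Variant 1 sgNeo tumours low in AT2 genes (-6.54). Anpep and Habp2 were both called with upper-quartile scaling, the stricter filter or DESeq2, and without tumour 1 or 3 of CE428, tumour 1 or 3 of CE429, or tumour 3 of CE483. Ezr was called with limma voom, at -0.50, a fit that called 1166 of 20009 genes.

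Single genes of the marker lists were called between the guides as well, and their part in these differences was not tested. Over all genes, 1.42% were called in Variant 1 and 1.49% in Variant 3. No gene of the AT1, fibroblast and mesothelium, or epithelium lists was called in either variant. Of 5 cell cycle genes, 2 were called lower with sgSetd2 in Variant 1 and 0 in Variant 3. The mean log2(CPM + 1) of that list ranged over tumours from 1.35 to 5.95 with sgNeo and 1.83 to 3.68 with sgSetd2 in Variant 1. In Variant 3 it ranged from 2.19 to 5.44 and from 2.64 to 5.24. Of 5 club and ciliated cell genes, 1 was called higher in both variants: Cyp2f2, a club cell cytochrome P450, at 19.9 ± 2.47 against 247 ± 46.6 CPM in Variant 1 and 11.6 ± 4.05 against 112 ± 74.3 CPM in Variant 3. The mean log2(CPM + 1) of that list was 1.42 to 4.05 with sgNeo and 3.76 to 6.49 with sgSetd2 in Variant 1, and 1.18 to 2.20 and 1.61 to 4.64 in Variant 3. Of 7 AT2 genes, 1 was called lower in Variant 3, Napsa, at 752 ± 228 against 242 ± 67.3 CPM.

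**Figure D3:**
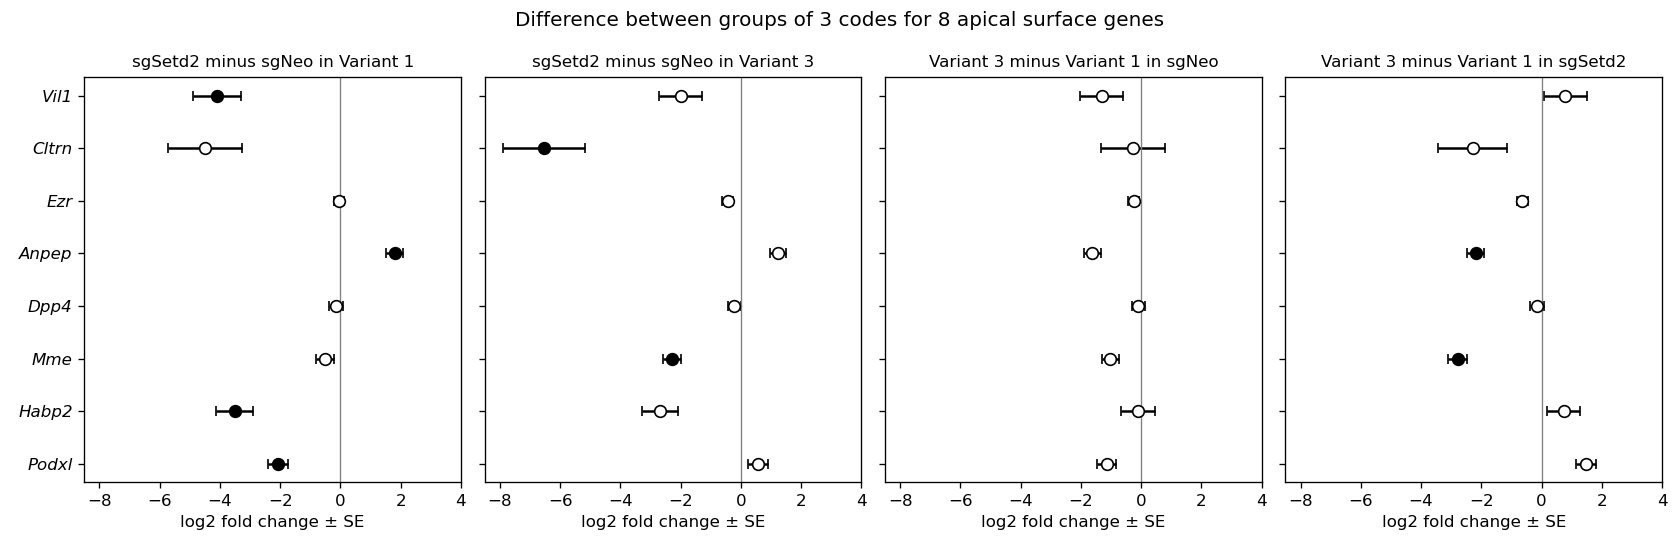
Log2 fold change ± SE of 8 members in the 4 comparisons between groups of 3 codes; filled points had an adjusted p under 0.05 over all 20009 genes. Anpep was higher with sgSetd2 in both variants (1.80 and 1.23), and Mme and Anpep were lower in Variant 3 than in Variant 1 among sgSetd2 tumours (-2.78 and -2.19).

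The comparison of Variant 3 with Variant 1 uses the same libraries as the guide comparisons, so it is not independent of how the genes were chosen. Among sgNeo tumours 0 of the 8 members passed the edgeR test, beside 0.005% of all genes, and DESeq2 called 3 (Mme, Podxl and Anpep), beside 2.52% of all genes it tested. At an unadjusted p under 0.05 in edgeR there were 3 members, beside 2080 of 20009 genes. The values of all 8 were below 0, from -0.09 ± 0.23 for Dpp4 to -1.62 ± 0.28 for Anpep (adjusted p = 0.138, edgeR). Podxl stood at -1.15 ± 0.33 and Mme at -1.02 ± 0.29, with adjusted p = 0.329 and 0.324, and Vil1 at -1.31 ± 0.71. The remaining values were -0.27 ± 1.06 for Cltrn, -0.25 ± 0.18 for Ezr and -0.11 ± 0.56 for Habp2. The median was -0.65, beside -0.02 over all genes. The codes of the variants did not overlap for Anpep, Mme and Podxl, a description given without the share over all genes. Anpep passed without the same 3 Variant 1 sgNeo tumours low in AT2 genes, at -2.24, and without the 4 tumours with over 10 CPM of Col1a1, at -2.0.

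Among sgSetd2 tumours, Mme and Anpep fell in Variant 3 relative to Variant 1. The log2 fold change of Mme was -2.78 ± 0.31 (edgeR, adjusted p = 0.0099) and that of Anpep was -2.19 ± 0.28 (adjusted p = 0.013), and for both genes all 9 Variant 3 tumours were below all 9 Variant 1 tumours. These were 2 of the 8 members called, beside 0.13% of all genes, while the share of all genes without overlap of tumours is not given. Podxl was at 1.49 ± 0.33 (adjusted p = 0.13), Ezr at -0.64 ± 0.18 (adjusted p = 0.251) and Cltrn at -2.29 ± 1.14 (adjusted p = 0.543). Vil1, Habp2 and Dpp4 were at 0.79 ± 0.71, 0.73 ± 0.56 and -0.16 ± 0.23. The median was -0.40, beside 0.03 over all genes. Both calls were lost without code CE450 or CE456 and without tumour 2 of CE429 or tumour 3 of CE433, at nearly the same fold changes: Mme kept a value of -2.92 to -2.58 and Anpep one of -2.38 to -1.95 under every code or tumour left out. Both were also lost with limma on the mean of each code, at -2.88 and -2.23. The Mme call alone was lost with limma voom, at -2.82. The Anpep call alone was lost with only the groups compared, at -2.20, and without code CE483, tumour 3 of CE467 or tumour 2 of CE472. Without tumour 4 of CE479 the Cltrn value turned to 0.52. Podxl was called with DESeq2 (1.47) and limma on code means (1.54), and Ezr with DESeq2 (-0.65) and limma voom (-0.66). Of all genes, DESeq2 called 544 of 19605, limma on code means 68 of 20009 and limma voom 355 of 20009.

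The difference of the guide effects between the variants was not past the threshold for any member, and 0.0% of all genes passed it. At an unadjusted p under 0.05 there were 1200 genes, 2 of them members, and DESeq2 called 2 members, Mme and Podxl, beside 0.724% of all genes it tested. The difference was 2.64 ± 0.47 for Podxl (edgeR, adjusted p = 0.385), -1.76 ± 0.41 for Mme (adjusted p = 0.548) and -2.02 ± 1.54 for Cltrn (adjusted p = 0.914). As the guide comparisons were in view, these too are a description.

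For Mme and Cltrn, tumours of 1 code differed from each other about as much as all tumours of a group. In Variant 1 sgNeo the pooled SD of log2(CPM + 1) within codes was 3.35 for Mme and 3.20 for Cltrn, and over all 9 tumours it was 2.95 and 2.84. With sgSetd2 the spread within codes was 0.454 for Mme in Variant 1 and 0.605 in Variant 3, against 2.97 in Variant 3 sgNeo. The difference in spread was not tested.

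Within the sgNeo groups, tumours high in Cltrn and Habp2 were often low in Mme and Anpep. In tumour 2 of CE472 the levels were 278 CPM of Cltrn and 447 of Habp2, with 0.0 of Mme and 6.54 of Anpep. Tumour 2 of CE428 had 283 CPM of Cltrn and 178 of Habp2, with 0.0 of Mme and 4.27 of Anpep. Tumour 2 of CE433 had 304 CPM of Cltrn, 183 of Habp2 and 20.1 of Vil1, with 1.07 of Mme and 0.0232 of Anpep. These 3 tumours were the highest of all 36 in Cltrn and the lowest in Mme. At the other end, tumour 3 of CE467 had 387 CPM of Mme and 45.3 of Anpep, with 0.429 of Cltrn and 2.06 of Habp2.

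Correlations within groups are given as descriptions over 9 tumours, of which each 3 share a code. Cltrn and Habp2 had r = 0.82 (rho = 0.98) in Variant 1 sgNeo and r = 0.87 (rho = 0.83) in Variant 3 sgNeo, against 0.35 (0.17) and 0.22 (0.29) in the sgSetd2 groups. Cltrn and Mme had r = -0.59 (rho = -0.72) and -0.86 (-0.83) in the sgNeo groups and 0.29 (-0.18) and 0.43 (0.59) in the sgSetd2 groups. For Anpep and Mme the values were 0.83 (0.93) and 0.76 (0.88) with sgNeo, and 0.07 (0.33) and 0.22 (0.42) with sgSetd2. Anpep and Podxl had r = -0.92 (rho = -0.92) in Variant 1 sgNeo, but -0.28 (-0.37) in Variant 3 sgNeo. Habp2 and Podxl had positive r in all 4 groups, from 0.43 to 0.82. With sgSetd2, Cltrn was at or near 0 in most tumours, which leaves little range for a correlation.

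The marker lists varied along the same tumours. With the cell cycle list, Cltrn had r = 0.86 (rho = 0.80) in Variant 1 sgNeo and r = 0.65 (rho = 0.52) in Variant 3 sgNeo, and Mme had r = -0.73 (rho = -0.88) and -0.81 (-0.82). With the AT2 list, Mme had r = 0.72 (rho = 0.92) and 0.94 (0.98), Anpep 0.96 (0.95) and 0.75 (0.87), and Podxl -0.94 (-0.90) and -0.59 (-0.43). In Variant 1 sgSetd2, Mme had r = -0.72 (rho = -0.77) with the cell cycle list and 0.67 (0.80) with the AT2 list. In Variant 3 sgSetd2 these values were -0.28 (-0.27) and 0.32 (0.33). With the AT2 list in the sgSetd2 groups, Anpep had 0.50 (0.68) and 0.68 (0.87), and Podxl -0.27 (-0.57) and 0.70 (0.65). Cltrn had r = 0.38 (rho = 0.42) with the cell cycle list in Variant 1 sgSetd2 and -0.02 (0.05) in Variant 3 sgSetd2. The part of these lists in the differences between groups was not tested.

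**Figure D4:**
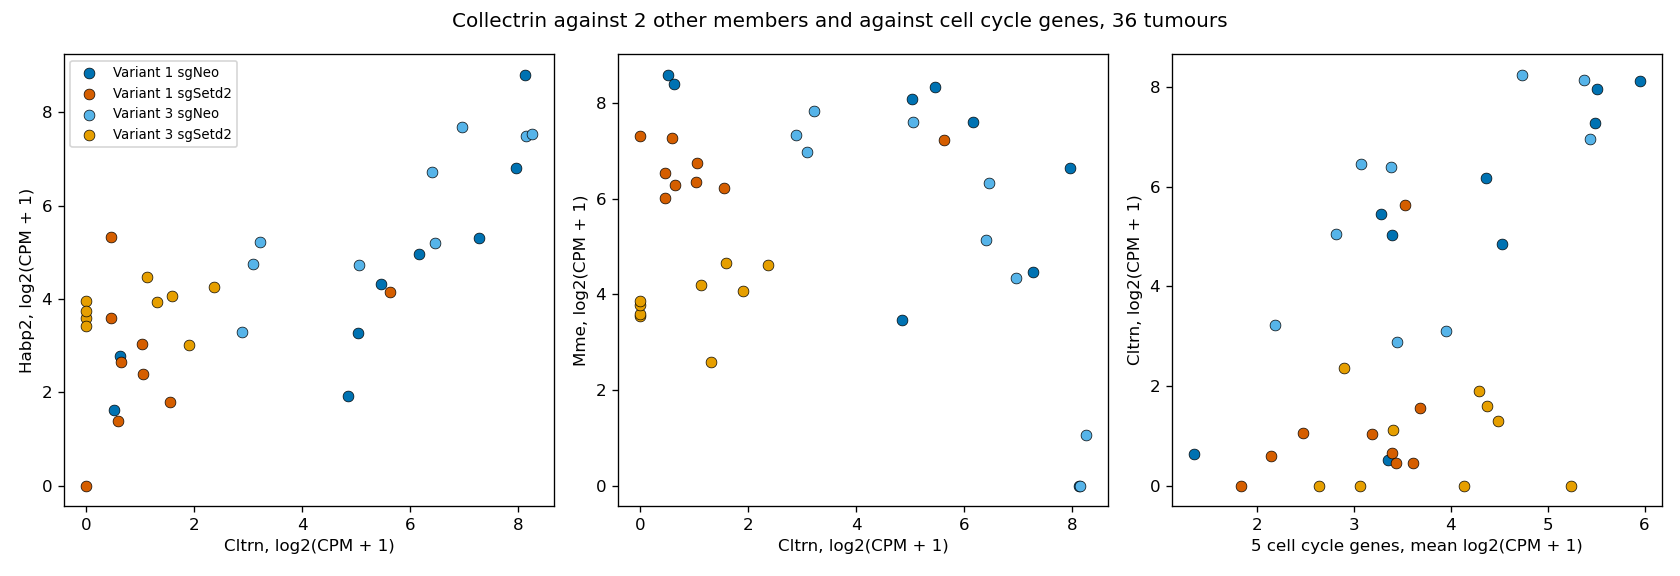
Cltrn against Habp2 and against Mme, and Cltrn against the mean of 5 cell cycle genes, all as log2(CPM + 1), in 36 tumours coloured by group. Among sgNeo tumours, those with more Cltrn tended to have more Habp2 and cell cycle RNA and less Mme, whereas sgSetd2 tumours kept low Cltrn, with 48.5 CPM in 1 tumour and at most 4.14 CPM in the others.

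Other genes of the microvillus and its surface were followed in lists, which were also chosen with results of these data known. Of 11 tested genes of the brush-border core, which bundle actin or build and anchor the microvillus, 0 passed the edgeR test in either guide comparison. The shares over all genes were 1.42% in Variant 1 and 1.49% in Variant 3, so 0 of 11 says little. Their medians were 0.02 in Variant 1 and 0.11 in Variant 3. Pls1, the actin bundler plastin 1, had 23.6 ± 2.58 CPM in Variant 1 sgNeo and 44.7 ± 5.89 in Variant 1 sgSetd2 (log2 fold change 0.92 ± 0.28, adjusted p = 0.136, edgeR). Espn, the actin bundler espin, was at most 4.59 CPM in any tumour. Slc9a3r1, the scaffold that joins ezrin to apical membrane proteins, stood between 104 ± 11.2 and 124 ± 28.7 CPM in the 4 groups.

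Of 20 tested apical hydrolases and transporters, 2 passed as higher with sgSetd2 in Variant 1 and 1 in Variant 3, with 0 lower in either. Over all genes, 0.7% were called higher in Variant 1 and 0.88% in Variant 3. Alpl, the tissue-nonspecific alkaline phosphatase, rose from 4.51 ± 1.55 to 15.5 ± 3.57 CPM in Variant 1 (log2 fold change 1.77 ± 0.35, edgeR, adjusted p = 0.0334). It also rose from 3.09 ± 1.33 to 15.2 ± 3.07 CPM in Variant 3 (2.30 ± 0.35, adjusted p = 0.0111). Slc6a20a, an amino acid transporter, rose from 28.5 ± 15.8 to 88.1 ± 27.5 CPM in Variant 1 (1.63 ± 0.35, adjusted p = 0.0476). Enpep, the aminopeptidase A that stands beside Anpep on many apical membranes, fell between the variants among sgSetd2 tumours, from 418 ± 54.3 CPM in Variant 1 to 142 ± 38.2 in Variant 3 (-1.56 ± 0.23, adjusted p = 0.0285). Xpnpep2 and Ggt1, an aminopeptidase and a glutathione hydrolase of the brush border, did not pass in either variant. Xpnpep2 stood at 5.01 ± 3.09 and 0.18 ± 0.187 CPM in Variant 1 and at 5.81 ± 4.49 and 0.167 ± 0.15 CPM in Variant 3 (adjusted p = 0.12 and 0.106, edgeR). The medians of the list were 0.11 and 0.22.

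Relatives of the 9 genes gave 0 calls among 28 tested, and apical polarity genes 0 among 10, in each of the guide and variant comparisons. Over all genes the shares called were 1.42% and 1.49% between the guides in Variant 1 and Variant 3. Between the variants they were 0.005% with sgNeo and 0.13% with sgSetd2. At such shares 0 calls say little about lists of this size. Moesin (Msn), a relative of ezrin, stood between 628 ± 155 and 669 ± 119 CPM in all groups. Of 13 tested regulators of epithelial surface genes, 1 passed: Elf3, an epithelial ETS factor, rose with sgSetd2 in Variant 3 from 88.3 ± 8.22 to 162 ± 16.2 CPM (0.88 ± 0.13, edgeR, adjusted p = 0.00936). In Variant 1 its value was 0.59 ± 0.13 (adjusted p = 0.0509). Among the factors whose motifs were searched, Cdx1 and Cdx2 had 0 counts in 36 tumours. Hnf4a, a regulator of liver and gut genes, stood at 2.10 ± 2.94, 0.436 ± 0.544, 6.60 ± 5.49 and 0.105 ± 0.0973 CPM, with a single Variant 3 sgNeo tumour at 37.3 CPM, and it did not pass in Variant 3 (-5.96 ± 1.74, adjusted p = 0.127).

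The genes whose pattern was most like that of each member were taken over all 36 tumours among 9870 candidates, by Pearson's r of log2(CPM + 1). The tumours share codes and groups, and a high r includes any difference between the groups. Mme had the closest neighbour, Nkd1 (r = 0.92, rho = 0.94), followed by Cds1 (0.90, 0.88) and Kcnj15 (0.89, 0.85). Anpep was followed by Itih4 (0.90, 0.90), Lpar3 (0.90, 0.90) and C6 (0.89, 0.91). For Cltrn the neighbours were Trp53 (0.89, 0.90), Fblim1 (0.89, 0.88) and Hunk (0.88, 0.81). Dpp4 had Slc39a8 (0.88, 0.72), Cndp2 (0.87, 0.61) and Selenop (0.86, 0.68). Ezr had Plk2 (0.86, 0.86), Ldhb (0.85, 0.77) and Slc12a2 (0.83, 0.76), and Habp2 had Mical1 (0.86, 0.86), Gstm1 (0.84, 0.75) and Sertad4 (0.84, 0.80). The weakest likeness was found for Podxl, with Ebp (0.74, 0.74), Tspan7 (0.72, 0.71) and Basp1 (0.71, 0.63), and for Vil1, with Rbck1 (0.69, 0.70), Arfgap1 (0.65, 0.40) and Mrpl28 (0.62, 0.44). No member was among the nearest genes of another member.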

How the data were processed

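The authors deposited a table of raw counts per gene identifier for 36 tumours. Per the labels' protocols, RNA of sorted cells was isolated with a PicoPure kit and sequenced as paired ends after SMART-Seq preparation. The submitters' processing notes name STAR 2.5.3a, R 4.2 and DESeq2 1.38.3, with no role given. How reads were counted, whether strand was used, and which build and annotation served is not given in the sources used here. Hence reads of overlapping or antisense genes cannot be told apart. Symbols and exon lengths came from a GRCm38 annotation, and 49326 of 49585 identifiers matched. No 2 libraries held identical values.

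The members and the gene lists were chosen with earlier results of these data known. Summing the counts of each code's 3 tumours gave 12 units. These were filtered with filterByExpr (minimum count 10), scaled by TMM and fitted over all 4 groups with edgeR 4.0.16 (robust quasi-likelihood, two-sided, R 4.3.3), with Benjamini-Hochberg adjustment over 20009 genes and a threshold of 0.05. The SE of a log2 fold change was its size divided by the square root of F. The fit was tested on simulated data. Correlations used log2(CPM + 1). Limits from 3 counts cover counting error only. From each list, genes that passed and those with the smallest p were named, and for each member the 3 nearest genes with a mean of at least 5 CPM.

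The fit was repeated with upper-quartile or RLE scaling, without the filter or with a minimum count of 50, with DESeq2 1.42.0, limma 3.58.1 on the mean log2-CPM per code, limma voom on tumours with the code as a random block, fits of only the groups compared, the sex of the code as a covariate (from Ddx3y, above 50 CPM), and fits without each code, each tumour, 3 Variant 1 sgNeo tumours low in AT2 genes, or the 4 tumours with over 10 CPM of Col1a1. Some genes of the lists, and a motif, are not reported here.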

Additional observations from a re-analysis of the deposited data

Results flagged for a closer look

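In 6 of 33 sets of 9 tumours, 1 tumour stood far from the other 8, with a gap to its nearest neighbour above 0.493 of the range of the set. For 9 independent values from a normal distribution, chance gives this in about 1 of 20 sets. CPM values are skewed and tumours share codes, so the rate by chance in these sets is not known. Vil1 in Variant 3 sgNeo was 20.1 CPM in tumour 2 of CE433, and the next tumour had 2.04. Cltrn in Variant 1 sgSetd2 was 48.5 CPM in tumour 4 of CE479, against 1.95 in the next, and this tumour also had the highest fibroblast and mesothelium list of its group, 4.42. Dpp4 in Variant 1 sgSetd2 was lowest in tumour 2 of CE479, at 202 CPM, where the next lowest had 305. Habp2 in Variant 1 sgNeo was 447 CPM in tumour 2 of CE472, against 110 in the next. Habp2 in Variant 1 sgSetd2 was 39.0 CPM in tumour 1 of CE475, against 16.6 in the next. Podxl in Variant 1 sgNeo was 159 CPM in tumour 1 of CE467, against 70.5 in the next. The cause of these values was not tested.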

How the results depend on the processing

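No paired analysis was possible because each code belongs to 1 group. With sgSetd2 against sgNeo in Variant 1, 4 members passed. The number was 2 with limma voom, 0 without the 3 AT2-low tumours of Variant 1 sgNeo and 0 to 4 when a code or tumour was left out: 0 without code CE475 or CE483, tumour 1 of CE467 or tumour 2 of CE472, 1 without code CE468 or tumour 3 of CE433, and 2 without code CE467 or tumour 1 of CE468. In Variant 3, 2 passed. The number was 4 with upper-quartile scaling, the stricter filter or DESeq2, and 1 to 4 with a code or tumour left out. It was 1 with limma on code means (Cltrn), limma voom (Ezr), sex as a covariate (Mme) or without the 3 AT2-low tumours (Mme). Between variants in sgNeo, 0 passed, but 3 with DESeq2, 1 without the AT2-low tumours and 1 without the Col1a1-high tumours, and 0 whichever code or tumour was left out. In sgSetd2, 2 passed (Mme and Anpep), and 0 to 2 with a code or tumour left out. The number was 4 with DESeq2, which added Podxl and Ezr, and 1 with limma on code means (Podxl) or with only the groups compared (Mme). Limma voom called Anpep and Ezr there. For the difference of guide effects, 0 passed, but 2 with DESeq2, and the fit of only the groups compared has no such term.

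Signs turned in these fits. Limma on code means and limma voom gave log2 fold changes of 1.01 and 1.81 for Mme with sgSetd2 in Variant 1 and 0.14 and 0.81 for Vil1 in Variant 3. Between variants in sgNeo they gave 0.08 and 0.07 for Dpp4, 1.55 and 0.86 for Habp2, and 0.78 and 0.08 for Cltrn. There, Cltrn was also 0.04 with sex as a covariate, and without the AT2-low tumours Habp2 was 1.20, Cltrn 0.29 and Podxl 0.05. Without the Col1a1-high tumours Cltrn was 0.78 between variants in sgSetd2 and 0.94 in the difference of guide effects. With a code or tumour left out, signs turned within these ranges: with sgSetd2, Dpp4 -0.31 to 0.14 and Ezr -0.14 to 0.05 in Variant 1, and Vil1 -2.86 to 0.33 in Variant 3. Between variants in sgNeo they were Dpp4 -0.27 to 0.19, Habp2 -0.76 to 1.28 and Cltrn -0.81 to 0.30. In sgSetd2 they were Dpp4 -0.27 to 0.05 and Cltrn -2.89 to 1.18, and for the difference of guide effects Cltrn -2.63 to 1.44. The cause was not tested. Cdhr5 and the low end of Vil1 rest on few counts, and the part of depth in this was not tested.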
